A study of Mus musculus with 30 samples.

Results

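Integrins and chemokine receptors decide whether a T cell enters a tissue, stays there or leaves again, and 9 genes of this kind were followed across the T cells of mouse oral carcinomas. They were taken as a named list, Itgae, Itga1, Itga4, Itgb1, Itgb7, Cxcr6, Ccr2, Ccr9 and Cx3cr1, out of 13728 genes measured in all 8 single-cell RNA libraries. All 9 were present in every library. The tumours were grown from MOC1, MOC1E1 (named MOC1esc1 in some labels) and MOC22 oral squamous carcinoma cells in C57BL/6J mice. Mice bearing MOC1 or MOC1E1 tumours were given anti-PD-1, anti-CTLA-4 or an isotype control antibody, and mice with MOC22 tumours were given anti-PD-1 or the isotype control, by injection on days 3, 6 and 9 after the tumour cells. Each condition had 1 RNA library and 1 matching T cell receptor library, and the labels call the RNA material T cells for MOC1 and MOC22 and immune cells for MOC1E1. Bulk RNA covered untreated MOC1E1 and MOC1 tumours and cultures of the same cells, with 3 libraries a group.

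The Itgae product, also called CD103, pairs with the Itgb7 product and binds E-cadherin (Cdh1) on epithelial cells, which holds T cells within an epithelium. The Itga1 product pairs with that of Itgb1 and binds collagen, and the Itga4 product pairs with that of Itgb1 or Itgb7 and binds Vcam1 or Madcam1 on vessel walls. Cxcr6 is the receptor for Cxcl16 and Cx3cr1 the receptor for Cx3cl1. Ccr2 responds to Ccl2 and its relatives on inflammatory monocytes and activated T cells, and Ccr9 responds to Ccl25 and is best known from the thymus and small intestine. Itgae, Itga1 and Cxcr6 are used together to mark tissue-resident memory T cells.

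Cells were classed by their own transcripts. T cells had at least 1 UMI (a counted RNA molecule) of Cd3d, Cd3e or Cd3g. Of these, CD8 cells held Cd8a or Cd8b1 without Cd4 or Foxp3, CD4 cells held Cd4 without Cd8 or Foxp3, and Foxp3-positive cells held Foxp3, the factor that defines regulatory T cells, without Cd8. This gave 10577 CD8, 3493 CD4 and 2418 Foxp3-positive cells, and 5971 further T cells were in none of the 3 classes. Of these, 1296 held both Foxp3 and Cd8. They outnumbered the Foxp3-positive class in MOC22 isotype (198 against 116 cells) and MOC22 anti-PD-1 (164 against 75). The same was so in MOC1 anti-CTLA-4 (86 against 44) and MOC1E1 anti-CTLA-4 (52 against 41). The libraries held 14766019 to 28466596 UMIs. A library gave 277 to 2239 CD8 cells, 116 to 739 CD4 cells and 41 to 1200 Foxp3-positive cells, the fewest Foxp3-positive cells being in the anti-CTLA-4 library of MOC1E1, with 41, and that of MOC1, with 44. Levels are UMIs of a gene per 1000000 UMIs of the class (CPM), and intervals are exact 95% counting intervals that do not cover the spread between mice. Neutrophils, B cells and macrophages of MOC1E1, which were used to gauge stray RNA, held a Cxcr6 UMI in 0 to 1.00% of cells and an Itgae UMI in 0 to 3.07%. Their median depth was 1023 to 6093 UMIs, against 4744.5 to 6405 UMIs in CD8 cells. Summed macrophage and monocyte markers (8 genes) ran from 435 to 2100 CPM in CD8 sums, 21.8 to 2862 CPM in CD4 sums and 7.89 to 3929 CPM in Foxp3-positive sums. One of them, Ly6c2, is also made by CD8 T cells, and split off after its values were seen it gave 429 to 1398 CPM of the CD8 sums. The other 7 markers came to 1415, 113 and 623 CPM in CD8 cells of MOC1E1 with anti-PD-1, anti-CTLA-4 and isotype, against 3.47 to 10.7 CPM in CD8 cells of MOC1 and MOC22. In the same order they came to 2517, 274 and 1010 CPM in CD4 cells and 3609, 4.21 and 3189 CPM in Foxp3-positive cells of MOC1E1, so they differed between its treatments. In MOC1 and MOC22 they reached 81.6 CPM in CD4 and 105 CPM in Foxp3-positive sums. Summed dendritic cell markers ran from 81.4 to 779 CPM in CD8, 74.0 to 934 CPM in CD4 and 33.7 to 1271 CPM in Foxp3-positive sums of MOC1E1. They reached at most 34.7, 169 and 231 CPM in MOC1 and MOC22, in the same order. These markers were not used to pick the likely doublets described below, and the part of dendritic cell RNA in the levels was not tested. Pairs of libraries shared 7 to 35 cell barcodes, at most 0.944% of the smaller library.

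The 4 chemokine receptor genes lie on mouse chromosome 9 (GRCm38.p6), with Cx3cr1 at chr9:120048683-120068296, Ccr9 at chr9:123767211-123783457, Cxcr6 at chr9:123806477-123811754 and Ccr2 at chr9:124101918-124109140. Cxcr6 lies within the span of Fyco1 (chr9:123789500-123851899), so reads of these overlapping genes may not be told apart in tables counted without strand. Of the integrins, Itgae is at chr11:73090505-73147449 and Itgb7 at chr15:102215994-102233405. Promoters were available for 8 of the 9 members from RefSeq on GRCm38.p6. The 250 bases before the start are shown for Cxcr6 and Itga4, since these were called in opposite directions in CD8 cells under anti-CTLA-4. Capitals mark the RUNX core TGTGGT and the T-box core GGTGTGA, both searched on both strands, and both stretches are on the plus strand, chr9:123806227-123806476 for Cxcr6 and chr2:79255176-79255425 for Itga4.
Cxcr6: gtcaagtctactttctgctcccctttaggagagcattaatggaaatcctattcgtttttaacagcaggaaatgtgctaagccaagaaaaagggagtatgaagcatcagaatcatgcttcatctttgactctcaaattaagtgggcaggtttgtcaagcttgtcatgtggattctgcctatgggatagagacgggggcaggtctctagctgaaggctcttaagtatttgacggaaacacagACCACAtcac
Itga4: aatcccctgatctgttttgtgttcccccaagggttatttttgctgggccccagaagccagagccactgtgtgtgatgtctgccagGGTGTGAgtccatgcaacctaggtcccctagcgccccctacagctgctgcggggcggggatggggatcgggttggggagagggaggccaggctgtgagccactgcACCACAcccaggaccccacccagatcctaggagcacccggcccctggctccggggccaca
The RUNX letters lay in the Cxcr6, Itga4 and Cx3cr1 windows and in 14.0% of 32851 mouse promoter windows of this length. The T-box letters lay in the Itga4 window and in 3.33% of all windows. The ETS core GGAAGT, searched in the same way, was found in Itga1 alone of the 8, and in 19.7% of all windows. A match of letters is a description and shows no binding.

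Itgae was a gene of Foxp3-positive cells first and of CD8 cells second. In Foxp3-positive cells it stood at 357, 166 and 335 CPM with anti-PD-1, anti-CTLA-4 and isotype in MOC1, at 255.5, 202 and 335 CPM in MOC1E1, and at 191 and 160.0 CPM with anti-PD-1 and isotype in MOC22. In CD8 cells it stood at 55.9, 44.1 and 116 CPM in MOC1, at 49.9, 104 and 122 CPM in MOC1E1, and at 120.5 and 183 CPM in MOC22, in the same order. In CD4 cells it stood at 75.9, 2.81 and 106 CPM in MOC1, at 78.0, 14.5 and 65.5 CPM in MOC1E1, and at 13.6 and 10.9 CPM in MOC22. Foxp3-positive cells were above CD8 cells in 7 of 8 libraries, the exception being MOC22 isotype, and above CD4 cells in all 8. Its partner Itgb7 had 402 to 851 CPM in Foxp3-positive cells, 169 to 331 CPM in CD8 cells and 178 to 486 CPM in CD4 cells, and Foxp3-positive cells were highest in 8 of 8 libraries. The ranges of the Foxp3-positive and CD8 classes did not overlap for Itgb7, a description with no share of all genes set beside it.

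Itga1, the collagen receptor chain, was a CD8 transcript in every library. It ranged over 14.2 to 66.9 CPM in CD8 cells, 0.750 to 15.2 CPM in CD4 cells and 0 to 4.21 CPM in Foxp3-positive cells, with the highest CD8 values in MOC22 anti-PD-1 and MOC1E1 anti-CTLA-4. Itgb1, the shared beta chain of several integrins, ranged over 235 to 424 CPM in CD8 cells, 150.1 to 692 CPM in CD4 cells and 91.2 to 299.97 CPM in Foxp3-positive cells, and CD4 cells were highest in 7 of 8 libraries. Itga4 ranged over 22.9 to 191 CPM in CD8 cells, 40.5 to 232 CPM in CD4 cells and 32.5 to 134 CPM in Foxp3-positive cells, and the 3 ranges overlapped.

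Among the chemokine receptors, Cxcr6 and Ccr2 lay on opposite sides between CD8 and Foxp3-positive cells. Cxcr6 ranged over 186 to 1094 CPM in CD8 cells, 56.3 to 824 CPM in CD4 cells and 38.7 to 189.8 CPM in Foxp3-positive cells. CD8 cells and CD4 cells each held the highest value in 4 libraries. Ccr2 ranged over 24.5 to 168 CPM in CD8 cells, 13.5 to 266 CPM in CD4 cells and 137 to 510.0 CPM in Foxp3-positive cells, which were highest in 8 of 8 libraries. Cx3cr1 was low throughout, with 9.16 to 76.5 CPM in CD8 cells, 1.501 to 59.97 CPM in CD4 cells and 0 to 50.9 CPM in Foxp3-positive cells. Macrophages of MOC1E1 held a Ccr2 UMI in 31.0 to 55.9% of cells and a Cx3cr1 UMI in 5.00 to 29.5%, and macrophage markers were high in the CD4 and Foxp3-positive sums of MOC1E1 anti-PD-1 and isotype. The part of macrophage RNA in these levels was not tested. Without likely doublets (cells with macrophage or neutrophil transcripts or with more than 1 beta chain), Ccr2 in CD4 cells was 144 CPM in MOC1E1 anti-PD-1 and 102 CPM in MOC1E1 isotype, against 266 and 221 CPM with all cells. In the same way Cx3cr1 in Foxp3-positive cells was 25.4 CPM in MOC1E1 anti-PD-1 and 17.8 CPM in MOC1E1 isotype, against 50.9 and 43.4 CPM with all cells, and in MOC1E1 isotype CD4 cells it was 10.8 CPM, against 39.1 CPM. Itga4 in MOC1E1 isotype Foxp3-positive cells was 58.4 CPM without likely doublets, against 102 CPM with all cells.

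Ccr9 was close to absent except in the CD8 cells of 1 library. It had 381 UMIs in MOC22 isotype CD8 cells, or 37.3 CPM (interval 33.6 to 41.2), in 17.7% of cells. The MOC22 anti-PD-1 CD8 cells had 0 UMIs, where 3 counts would be 0.203 CPM, which makes anti-PD-1 at least 184-fold lower than isotype in these libraries. In the other 6 libraries CD8 cells had 0 to 19 Ccr9 UMIs, and its level was at most 4.55 CPM in any CD4 sum and 3.95 CPM in any Foxp3-positive sum. A single library holds this signal, so it has no replicate check.

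**Figure D1:**
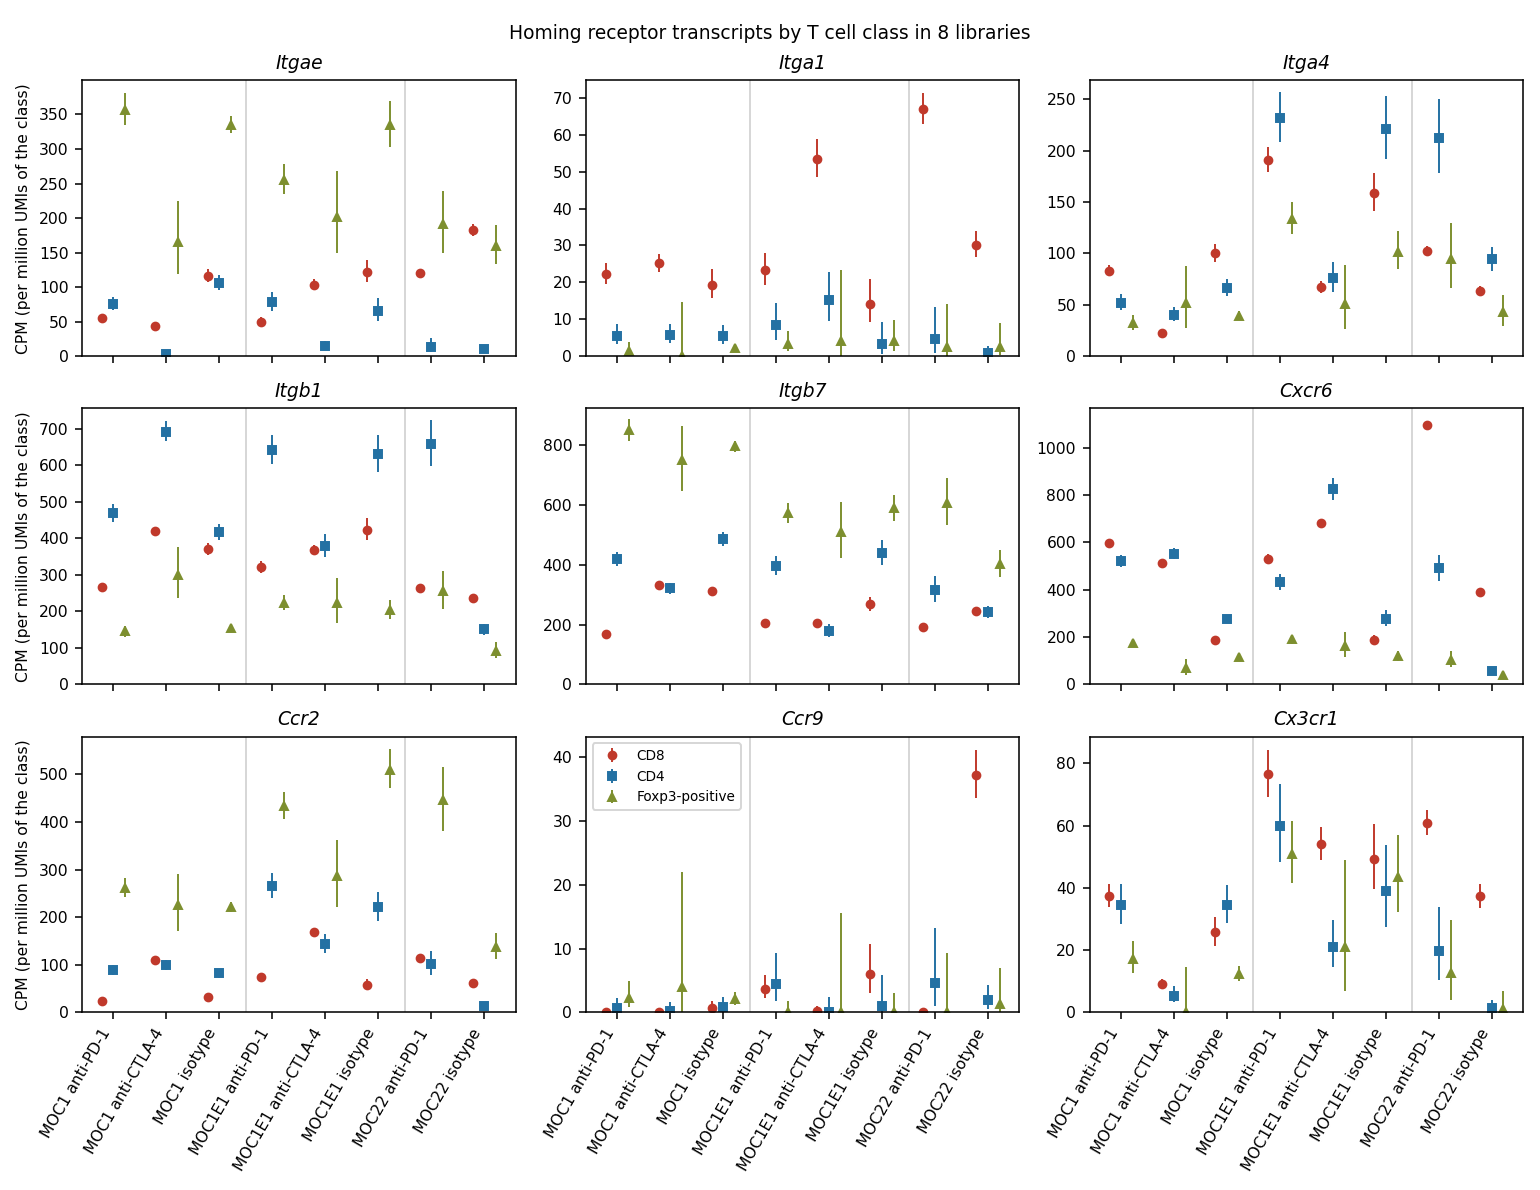
Levels of the 9 genes (y axis, CPM) in CD8 (circles), CD4 (squares) and Foxp3-positive cells (triangles) of each of the 8 libraries (x axis, grouped by model), with exact 95% counting intervals. Itgae, Itgb7 and Ccr2 were highest in Foxp3-positive cells in 7, 8 and 8 of 8 libraries, Itga1 in CD8 cells in all 8, and Ccr9 stood out in MOC22 isotype CD8 cells alone.

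Differences between classes were tested over the 8 libraries, with the library as a block, in edgeR's quasi-likelihood test with Benjamini-Hochberg adjustment over 9507 genes. Ccr9 did not pass the filter on low counts, so 8 of the 9 members were tested. Between CD8 and Foxp3-positive cells all 8 tested members passed the threshold on the adjusted p, 0.05, where 34.2% of all genes were called. Itga1 (log2 fold change 3.48, SE 0.30, edgeR adjusted p 1.94e-08), Cxcr6 (2.12, SE 0.31), Cx3cr1 (1.43, SE 0.33), Itgb1 (1.03, SE 0.16) and Itga4 (0.87, SE 0.19) were higher in CD8 cells. Ccr2 (-1.83, SE 0.32, edgeR adjusted p 0.000121), Itgb7 (-1.19, SE 0.15) and Itgae (-1.04, SE 0.39, edgeR adjusted p 0.0450) were lower in CD8 cells. The Itgae call was lost when any 1 of the 3 MOC1 libraries or the 3 MOC1E1 libraries was left out, with log2 fold changes of -0.83 to -1.10 and edgeR adjusted p of 0.0541 to 0.133 there.

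Between CD8 and CD4 cells 5 of 8 tested members were called, where 24% of all genes were called by the same edgeR test. Itga1 was higher in CD8 cells (2.34, SE 0.22, edgeR adjusted p 2.19e-07), in 8 of 8 libraries. Itgae (1.40, SE 0.41, edgeR adjusted p 0.0169) was higher in 6 of 8 libraries and Cx3cr1 (0.84, SE 0.29, edgeR adjusted p 0.0388) in 7 of 8. Itgb1 (-0.42, SE 0.15, edgeR adjusted p 0.0459) and Itgb7 (-0.42, SE 0.14, edgeR adjusted p 0.0351) were lower. Leaving out MOC1E1 anti-CTLA-4 or MOC22 isotype put Itgae at edgeR adjusted p 0.0537 and 0.0512, and the Cx3cr1, Itgb1 and Itgb7 calls were each lost without several single libraries. Cxcr6 (0.45, SE 0.29), Ccr2 (-0.47, SE 0.31) and Itga4 (-0.17, SE 0.16) did not pass, with edgeR adjusted p of 0.283, 0.307 and 0.511.

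Between Foxp3-positive and CD4 cells 7 of 8 tested members were called by edgeR, where 23.5% of all genes were called. Itgae (2.45, SE 0.41, edgeR adjusted p 0.000181), Ccr2 (1.36, SE 0.31) and Itgb7 (0.77, SE 0.14) were higher in Foxp3-positive cells, and Cxcr6 (-1.67, SE 0.31), Itgb1 (-1.45, SE 0.16), Itga1 (-1.14, SE 0.39) and Itga4 (-1.03, SE 0.20) were lower. The Itga1 call rested on few molecules and was lost without any of 5 single libraries. Cx3cr1 (-0.59, SE 0.36) did not pass.

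**Figure D2:**
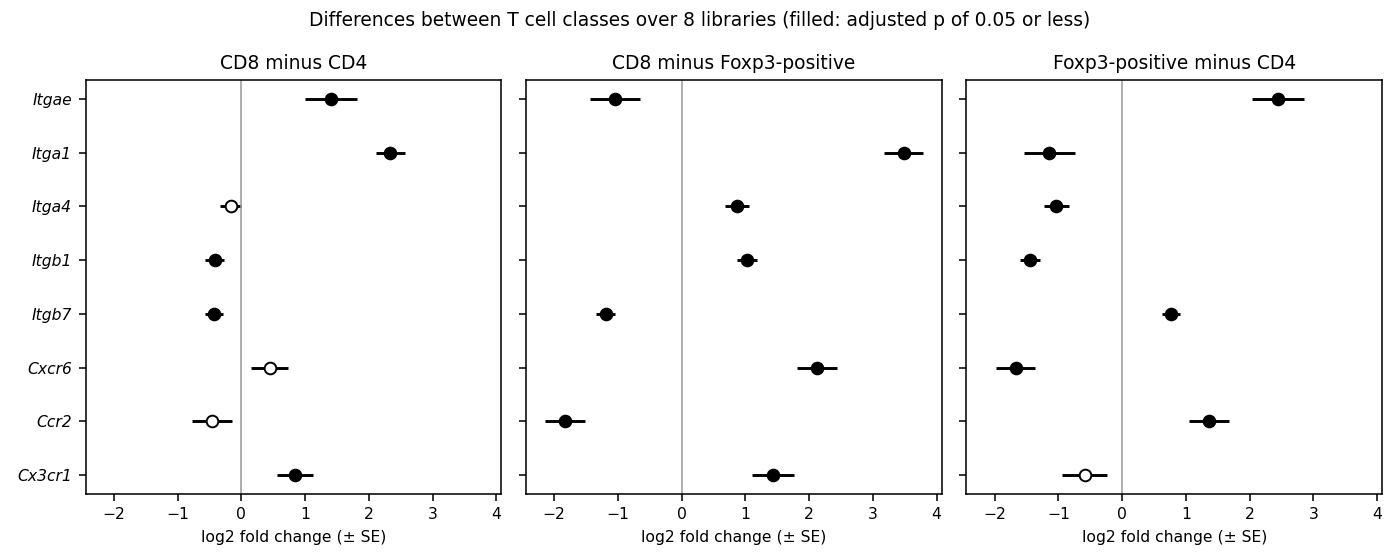
Log2 fold changes (x axis, with SE) of the 8 tested genes for 3 pairs of T cell classes over 8 libraries, from edgeR, filled where the adjusted p passed 0.05. All 8 genes were called between CD8 and Foxp3-positive cells, with Itga1 at 3.48 and Ccr2 at -1.83.

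Other genes of the same kinds also divided the classes, in the comparison of CD8 and Foxp3-positive cells where 34.2% of all genes were called. Of 17 tested genes among 19 other homing receptors and integrins, 3 were higher and 7 lower in CD8 than in Foxp3-positive cells by edgeR (median log2 fold change -0.87 over the list and 0.01 over all genes). The lower ones included the skin-homing receptor gene Ccr4 (-3.85), Ccr6 (-3.37) and Ccr8 (-1.71), and the higher ones Itgal (0.60) and Itgb2 (0.40), whose products form the LFA-1 integrin. In the signalling list of transforming growth factor beta, the cytokine that induces Itgae, 1 of 9 tested genes was higher and 3 lower in CD8 than in Foxp3-positive cells (list median -0.12). Itgb8, whose product activates that cytokine, was lower in CD8 cells (-4.90, SE 0.27, edgeR adjusted p 4.07e-11), and Tgfbr2, its receptor, was higher (1.03, SE 0.09). Of 11 tested genes of the residency programme, 3 were higher in CD8 than in Foxp3-positive cells, among them Runx3 (0.66) and the chemokine gene Xcl1 (5.90), and 5 were lower, among them Prdm1 (-1.27) and Ahr (-0.79).

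Cxcr6 rose in CD8 cells under both antibodies and stood above isotype in every model. Its level was 598, 511 and 186 CPM with anti-PD-1, anti-CTLA-4 and isotype in MOC1, 529.9, 681 and 188 CPM in MOC1E1, and 1094 and 390.5 CPM with anti-PD-1 and isotype in MOC22. The isotype libraries were thus the lowest of each model, and the share of CD8 cells with a Cxcr6 UMI was 71.8, 81.6 and 39.1% for MOC1, 64.8, 84.6 and 44.0% for MOC1E1 and 92.7 and 53.2% for MOC22, in the same order. In cells thinned to 2000 UMIs the shares were 53.6, 58.8 and 23.2%, then 48.1, 68.2 and 23.4%, then 80.7 and 35.1%. MOC1 cells carried 4 hashtags per library, whose meaning the labels do not give. Over these tags CD8 Cxcr6 ran from 508 to 680 CPM with anti-PD-1 and from 431 to 583 CPM with anti-CTLA-4, above the 147 to 274 CPM with isotype, with no overlap. The tags of a treatment share a library and their meaning is unknown, so this is a description and no replicate check. No share of all genes was set beside it.

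With the models as blocks, edgeR gave Cxcr6 a log2 fold change of 1.48 (SE 0.14, adjusted p 0.0120) for anti-PD-1 over isotype in CD8 cells. It was the 1 member called of 9 tested, where 2.32% of 11075 genes were called. For anti-CTLA-4 over isotype, in MOC1 and MOC1E1, edgeR called Cxcr6 (1.63, SE 0.17, adjusted p 0.00990) and Ccr2 (1.81, SE 0.25, adjusted p 0.0173) higher and Itga4 (-1.58, SE 0.23, adjusted p 0.0195) lower, 3 of 9 tested, where 4.42% of genes were called. Both comparisons share the isotype libraries. Each model has 1 library per treatment, so these fits rest on 3 and 2 pairs. Without MOC1 anti-PD-1, MOC1 isotype or MOC1E1 isotype the Cxcr6 change under anti-PD-1 was 1.33, 1.47 and 1.42, with edgeR adjusted p of 0.0662, 0.0576 and 0.0742. Without MOC1E1 isotype none of the 3 calls under anti-CTLA-4 remained, and the edgeR adjusted p of Cxcr6 was 0.0550 there.

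Ccr2 in CD8 cells was 109 CPM with anti-CTLA-4 and 32.0 CPM with isotype in MOC1, and 168 and 58.4 CPM in MOC1E1, a 3.40-fold and a 2.88-fold difference. Without likely doublets Ccr2 in MOC1E1 CD8 cells was 169 CPM with anti-CTLA-4 and 41.2 CPM with isotype, and Cxcr6 was 686 and 194 CPM. With anti-PD-1 it was 24.5 CPM in MOC1, 74.9 CPM in MOC1E1 and 114 CPM in MOC22, against 32.0, 58.4 and 60.9 CPM with isotype, and no model passed a 2-fold difference. Itga4 in CD8 cells was 22.9 CPM with anti-CTLA-4 and 100.0 CPM with isotype in MOC1, and 67.1 and 159 CPM in MOC1E1. With anti-PD-1 it was 83.2, 191 and 102 CPM in the 3 models, against 100.0, 159 and 63.5 CPM with isotype. The edgeR calls of Ccr2 and Itga4 were lost without MOC1 anti-CTLA-4 (1.51 and -1.26) and without MOC1E1 anti-CTLA-4 (2.11 and -1.90), and that of Ccr2 also without MOC1 isotype (2.04).

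Itgae did not rise with Cxcr6. Under anti-PD-1 it was lower in CD8 cells of 3 of 3 models, at 55.9, 49.9 and 120.5 CPM against 116, 122 and 183 CPM with isotype in MOC1, MOC1E1 and MOC22. The difference of -1.03 (SE 0.26) had an edgeR adjusted p of 0.0785, and DESeq2 put it at an adjusted p of 0.00664. Under anti-CTLA-4 Itgae in CD8 cells was 44.1 and 104 CPM, against 116 and 122 CPM with isotype, which edgeR did not call (-0.70, SE 0.30, adjusted p 0.217). Itga1 in CD8 cells reached 53.6 CPM with anti-CTLA-4 in MOC1E1, against 14.2 CPM with isotype, and 66.9 CPM with anti-PD-1 in MOC22, against 30.2 CPM with isotype. It did not pass in edgeR over models (1.23, SE 0.33, adjusted p 0.0756 for anti-CTLA-4).

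In single models, a 2-fold difference of a member with at least 10 CPM in either library and 20 UMIs over both was counted without a test. In CD8 cells 2 of 8 eligible members passed under anti-PD-1 in MOC1 (4.37% of all eligible genes), 2 of 8 in MOC1E1 (3.98%) and 3 of 9 in MOC22 (9.93%). Under anti-CTLA-4 5 of 8 passed in MOC1 (6.9%) and 4 of 8 in MOC1E1 (8.77%). In CD4 cells none of 7 passed under anti-PD-1 in MOC1 (1.88%) or in MOC1E1 (5.63%), and 4 of 6 passed in MOC22 (15.5%), all higher. These 4 were Cxcr6 at 489.9 against 56.3 CPM with isotype, Ccr2 at 102 against 13.5 CPM, Itgb1 at 658 against 150.1 CPM and Itga4 at 212 against 94.2 CPM. In Foxp3-positive cells the same 4 genes passed in MOC22 (12.3% of all eligible genes), and none of 7 did in MOC1 (1.52%) or MOC1E1 (4.4%) under anti-PD-1. Under anti-CTLA-4 the count in Foxp3-positive cells was 1 of 7 in MOC1 (17.9%) and 2 of 7 in MOC1E1 (16.5%), from 44 and 41 treated cells. The 2 in MOC1E1 were Itga4, at 50.5 CPM with anti-CTLA-4 and 102 CPM with isotype, and Cx3cr1, at 21.1 and 43.4 CPM. Without likely doublets neither passed. Itga4 was then 51.8 and 58.4 CPM, and Cx3cr1 was 21.6 CPM with anti-CTLA-4 and 17.8 CPM with isotype, where its direction turned. Other ratios passed only without likely doublets. Among them was Itgae in these MOC1E1 Foxp3-positive cells, at 199 CPM with anti-CTLA-4 and 424 CPM with isotype. Cx3cr1 in MOC1E1 CD4 cells was another, at 48.7 CPM with anti-PD-1 and 10.8 CPM with isotype.

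In CD4 cells the gene that stood out was Itgae under anti-CTLA-4. It fell to 2.81 CPM with anti-CTLA-4 in MOC1, from 10 UMIs, against 106 CPM with isotype, and to 14.5 CPM in MOC1E1, against 65.5 CPM with isotype. edgeR called it lower over models (-3.54, SE 0.53, adjusted p 0.0337), the 1 member called of 8 tested, where 0.559% of 9485 genes were called. The call was lost without any of 4 single libraries (MOC1 anti-CTLA-4, MOC1 isotype, MOC1E1 anti-PD-1 and MOC1E1 isotype), with log2 fold changes of -2.26 to -3.99. Over the hashtags of MOC1, CD4 Itgae was 1.07 to 4.90 CPM with anti-CTLA-4 and 104 to 126 CPM with isotype. The tags of a treatment share a library here too, so these ranges are a description and no replicate check. In single models 2 of 7 eligible members passed 2-fold under anti-CTLA-4 in MOC1 CD4 cells (6.07% of all eligible genes) and 5 of 8 in MOC1E1 (12.4%). Summed regulatory markers (Foxp3, Il2ra and Ikzf2) in the CD4 class moved with this result, at 85.7 and 99.1 CPM with anti-CTLA-4 against 377 and 365 CPM with isotype, and their part in it was not tested. Cxcr6 in CD4 cells was 552 and 824 CPM with anti-CTLA-4, against 276 and 277 CPM with isotype, and edgeR did not call it (1.70, SE 0.42, adjusted p 0.124).

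No gene was called by edgeR under anti-PD-1 in CD4 cells (0% of 9485) or Foxp3-positive cells (0% of 8340), where 600 and 321 genes had an unadjusted p under 0.05 and DESeq2 called 7 and 4. Cxcr6 in CD4 cells was higher under anti-PD-1 in 3 of 3 models, at 521.5, 431 and 489.9 CPM against 276, 277 and 56.3 CPM with isotype in MOC1, MOC1E1 and MOC22 (edgeR 1.45, SE 0.40, adjusted p 0.768). Under anti-CTLA-4 0.048% of genes were called in Foxp3-positive cells, none of them a member, while 2 members had an unadjusted p under 0.05 and DESeq2 called none. Itgae in Foxp3-positive cells was 166 and 202 CPM with anti-CTLA-4, against 335 CPM with isotype in MOC1 and in MOC1E1 (edgeR -0.74, SE 0.23, adjusted p 0.488).

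**Figure D3:**
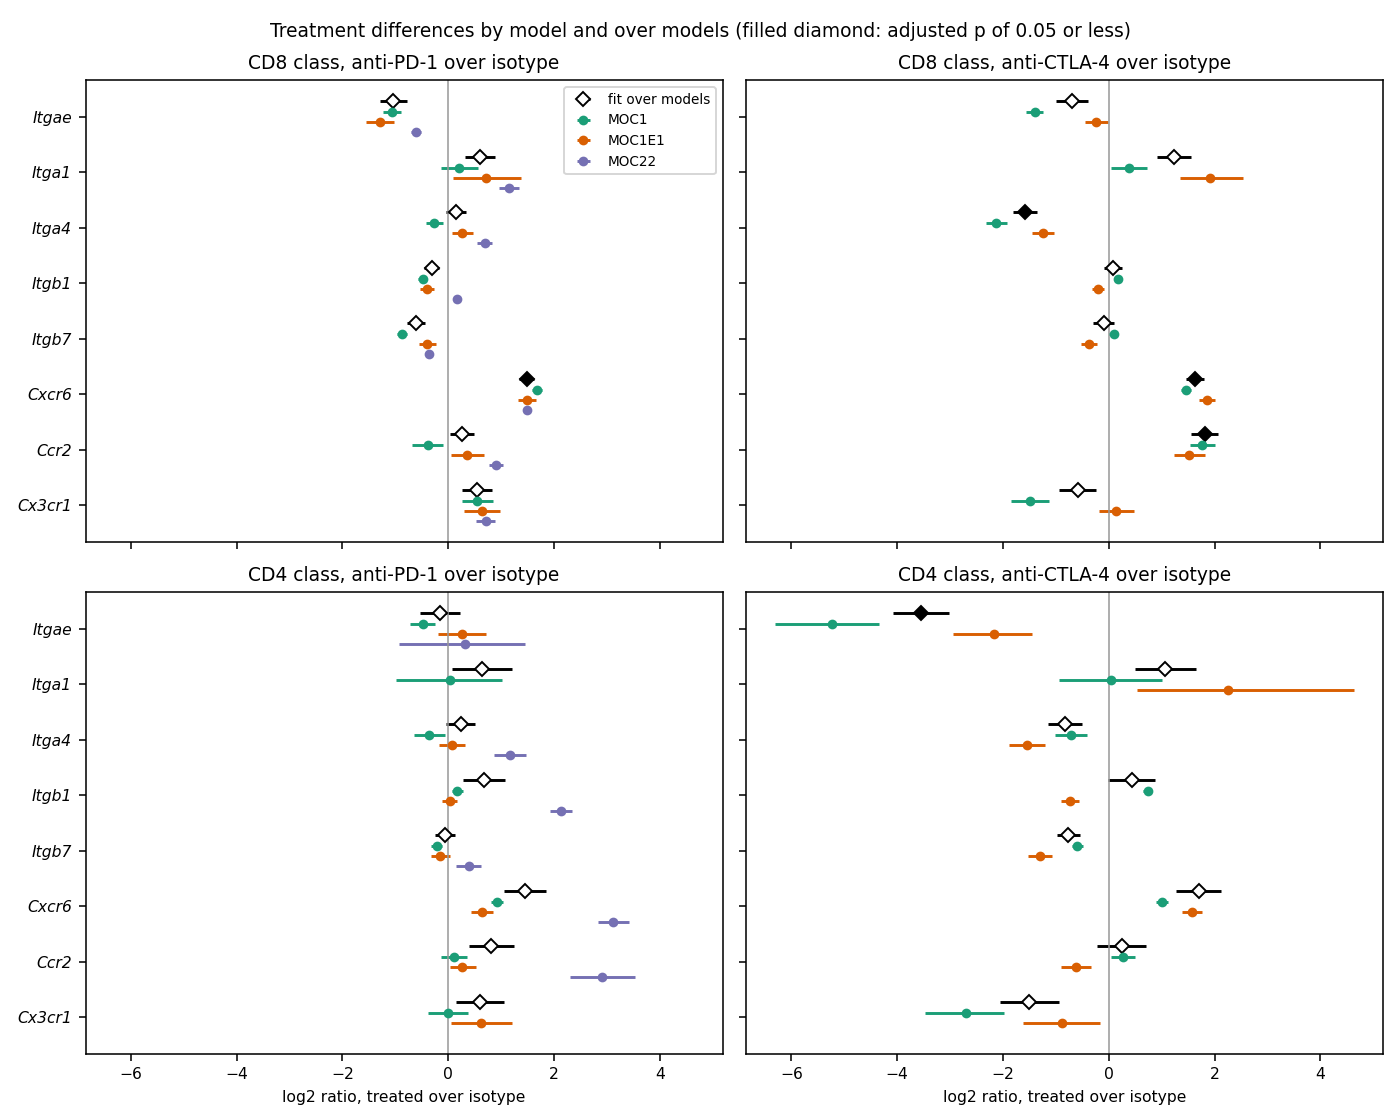
Log2 ratios of treated over isotype (x axis) for 8 genes in CD8 (top) and CD4 cells (bottom) under anti-PD-1 (left) and anti-CTLA-4 (right). Circles are single models with exact 95% counting intervals, drawn for sums of at least 20 UMIs, and diamonds the edgeR fit over models with its SE, filled when called. CD8 Cxcr6 lay near 1.48 and 1.63 under both antibodies, and CD4 Itgae at -3.54 under anti-CTLA-4.

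Among 9 genes of tissue exit and lymph node homing, several were lower under anti-CTLA-4 and 1 under anti-PD-1 in CD8 cells. Over all genes 4.42% and 2.32% were called there, in the same order. In CD8 cells edgeR called 4 of 9 tested genes of this list lower under anti-CTLA-4 and none higher (list median -2.52, all genes 0.01), namely Klf3 (-3.88), Klf2 (-2.52), S1pr1 (-1.89) and Eomes (-0.88). Klf2 drives S1pr1, the receptor through which T cells leave tissue. Under anti-PD-1 Klf2 was the 1 gene of 9 called lower in CD8 cells (-1.33, SE 0.27, edgeR adjusted p 0.0497). CD8 Klf2 was 180.4, 84.3 and 504 CPM with anti-PD-1, anti-CTLA-4 and isotype in MOC1, 414, 132 and 535 CPM in MOC1E1, and 145 and 544 CPM in MOC22. In CD4 cells, where 0.559% of all genes were called under anti-CTLA-4, 5 of 8 were lower by edgeR, among them Klf2 at -3.00. A change in the mix of naive and antigen-experienced cells and a change within cells cannot be told apart in these sums, and the part of either in the Cxcr6 values was not tested.

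Residency genes did not all rise in CD8 cells, where edgeR called 4.42% of all genes under anti-CTLA-4 and 2.32% under anti-PD-1. In CD8 cells edgeR called 3 of 12 tested higher under anti-CTLA-4, Prdm1 (1.70), Bhlhe40 (1.65) and Rgs2 (1.10), and 2 lower, Xcl1 (-2.45) and Ahr (-1.83), and under anti-PD-1 it called Prdm1 higher (1.67) and none lower. Of 19 tested other homing receptors and integrins, edgeR called 1 higher and 1 lower in CD8 cells under anti-PD-1, the lower one being Cxcr4 (-1.12). For anti-CTLA-4 it called 3 of the 19 higher, among them the integrin genes Itgal (1.15) and Itgb3 (2.42). It called 2 lower there, Ccr6 (-6.20) and Gpr15 (-4.92).

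Cxcr6 was detected more often in Itgae-positive than in Itgae-negative CD8 cells. The share of CD8 cells holding both was 12.8% (interval 11.2 to 14.7), 11.3% (10.0 to 12.8) and 16.0% (13.5 to 18.6) with anti-PD-1, anti-CTLA-4 and isotype in MOC1. In the same order it was 11.5, 21.8 and 18.4% for MOC1E1, while it was 26.3 and 29.0% with anti-PD-1 and isotype in MOC22. Cxcr6 was detected in 74% of Itgae-positive against 71.4% of Itgae-negative CD8 cells in MOC1 anti-PD-1, in 82.7 against 81.4% in MOC1 anti-CTLA-4, and in 53.0 against 33.2% in MOC1 isotype. In MOC1E1 the shares were 77.6 against 62.6% with anti-PD-1, 90.4 against 82.8% with anti-CTLA-4, and 61.4 against 36.6% with isotype. In MOC22 they were 95.9 against 91.5% with anti-PD-1 and 75.1 against 39.4% with isotype. The difference was positive in 8 of 8 libraries, with a mean of 13.9 percentage points (SD 12.2, n = 8 libraries), and an exact sign-flip permutation test over libraries gave p = 0.00781, two-sided, the smallest p that 8 libraries allow.

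Weighted over 4 bins of UMI count within a library it was 12.6 points (SD 12.2), and after thinning to 2000 UMIs it was 11.2 points (SD 13.7), positive in 7 of 8 libraries, MOC1 anti-PD-1 being the exception (exact sign-flip permutation p = 0.0234, two-sided). Without thinning, the 3 isotype libraries had the widest gaps, of 19.8, 24.8 and 35.7 points in MOC1, MOC1E1 and MOC22. The treated libraries had 2.63 and 1.29 points in MOC1, 14.97 and 7.54 points in MOC1E1 and 4.42 points in MOC22. There 62.6 to 91.5% of the Itgae-negative cells also held Cxcr6, which caps a gap in points. As a log2 odds ratio, which has no such cap, the isotype libraries had 1.18, 1.45 and 2.21 in MOC1, MOC1E1 and MOC22. The treated libraries had 0.19 (anti-PD-1) and 0.12 (anti-CTLA-4) in MOC1, 1.03 and 0.94 in MOC1E1, and 1.11 in MOC22. Isotype was the highest of each model on this scale too, but MOC1 isotype lay near the treated MOC1E1 and MOC22 libraries. After thinning the isotype gaps were 5.91, 27.7 and 36.6 points in MOC1, MOC1E1 and MOC22. With anti-PD-1 and anti-CTLA-4 they were then -4.00 and 2.30 points in MOC1 and 5.55 and 8.35 points in MOC1E1. MOC22 anti-PD-1 had 7.06 points, so MOC1 isotype then lay below it and below MOC1E1 anti-CTLA-4.

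**Figure D4:**
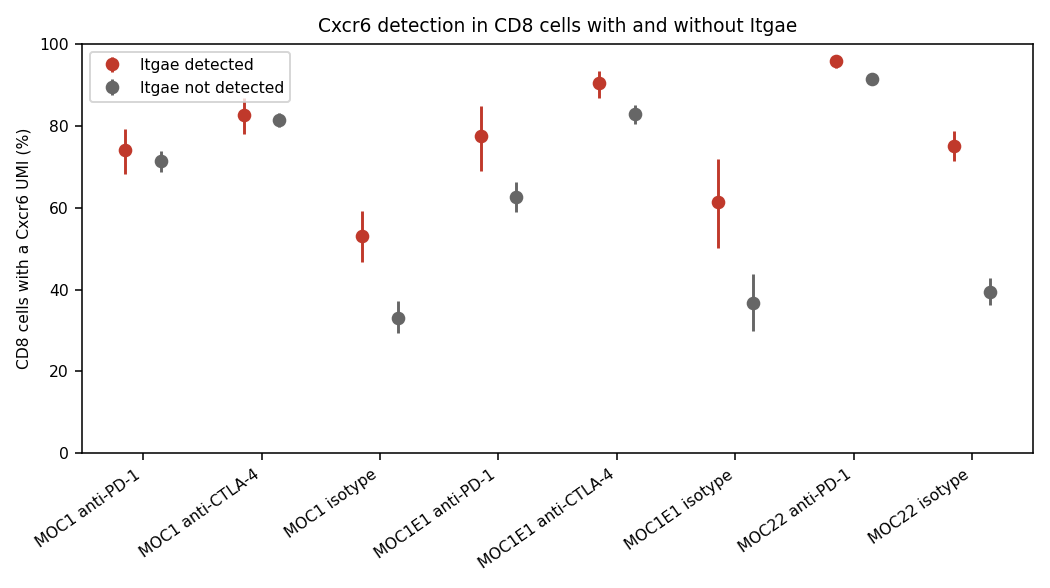
Share of CD8 cells with a Cxcr6 UMI (y axis, percent) among cells with and without an Itgae UMI in each library (x axis), with exact 95% binomial intervals. The Itgae-positive share lies above the other in all 8 libraries, by 35.7 points in MOC22 isotype and 1.29 points in MOC1 anti-CTLA-4.

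Other pairs of members in thinned CD8 cells showed who shares cells with whom, given as the share with both genes over the share that independent detection would give. Itgae with its partner Itgb7 had a ratio above 1 in 8 of 8 libraries (1.01 to 1.60), and Itga1 with Cxcr6 likewise (1.07 to 2.38). Itgae with Itga4 had a ratio below 1 in 8 of 8 libraries (0.164 to 0.819), and Itga4 with Cxcr6 in 7 of 8 (0.643 to 1.02). Cxcr6 with Cx3cr1 was above 1 in 8 of 8 (1.02 to 2.23). So were Itga1, Itgb1 and Itgb7 each with Ccr2, with median ratios of 1.49, 1.42 and 1.41. Itgb1 with Itgb7 (median 1.25) and Itgb1 with Cx3cr1 (median 1.18) were above 1 in 8 of 8 too. The median for Itgae with Itgb7 was 1.29, so a ratio above 1 in every library was not particular to integrin partners. These are descriptions of 36 pairs, with no test.

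Cells of expanded clones differed from cells of clones seen once. A clone was expanded if at least 2 barcodes of a receptor library shared its receptor, whatever their class and whether or not the RNA library held them. Taking the CD8 cells of these clones and of clones seen once gave 20 to 1106 expanded cells and 102 to 473 single cells per library. Cxcr6 in expanded cells was 746, 563 and 363 CPM with anti-PD-1, anti-CTLA-4 and isotype in MOC1, 772, 736 and 309 CPM in MOC1E1, and 1189 and 910.5 CPM with anti-PD-1 and isotype in MOC22. In single cells it was 364, 406 and 131 CPM in MOC1, 363, 552 and 179 CPM in MOC1E1, and 969 and 269 CPM in MOC22. Expanded cells were higher in 8 of 8 libraries, also for Cx3cr1, with a median of 63.2 CPM in expanded and 35.4 CPM in single cells. Itga1 was likewise higher in 8 of 8, with a median of 27.1 CPM in expanded and 19.7 CPM in single cells. It was not called by edgeR (0.52, SE 0.20, adjusted p 0.14). Itgb7 was lower in expanded cells in 7 of 8 libraries, with a median of 162 CPM in expanded and 255 CPM in single cells.

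Over the 8 libraries edgeR called Cxcr6 (0.82, SE 0.13, adjusted p 0.00506) and Cx3cr1 (0.76, SE 0.20, adjusted p 0.0373) higher and Itgb7 (-0.63, SE 0.16, adjusted p 0.0312) lower in expanded cells, 3 of 8 tested members, where 7.82% of 8367 genes were called. The Cxcr6 call held with each library left out in turn. The Cx3cr1 and Itgb7 calls were lost without MOC1 isotype, MOC1 anti-PD-1, MOC1E1 isotype (20 expanded cells) or MOC1E1 anti-PD-1, and that of Itgb7 also without MOC1E1 anti-CTLA-4. Itgae was lower in expanded cells in 6 of 8 libraries and was not called (-0.28, SE 0.23, edgeR adjusted p 0.494). Its exceptions were MOC22 isotype, with 368 CPM in expanded and 142 CPM in single cells, and MOC1E1 isotype, with 199.7 CPM in expanded and 117 CPM in single cells. The Ccr9 signal of MOC22 isotype lay in single cells, with 0.561 CPM in expanded and 45.7 CPM in single cells.

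Exit genes stood lower in expanded cells, in a comparison where 7.82% of all genes were called. edgeR called 6 of 8 tested genes of that list lower and none higher (list median -1.65, all genes 0.00), among them Klf3 at -2.62 and Tcf7, a gene of naive and stem-like T cells, at -2.36. Of 10 tested residency genes 1 was called, Cd69, which holds T cells in tissue by removing S1pr1 from the surface, and it was lower in expanded cells (-0.71, SE 0.11, edgeR adjusted p 0.00501). Of 13 tested other homing and integrin genes, edgeR called 3 higher in expanded cells, among them Itgav (0.67) and Itgb2 (0.34), and none lower.

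**Figure D5:**
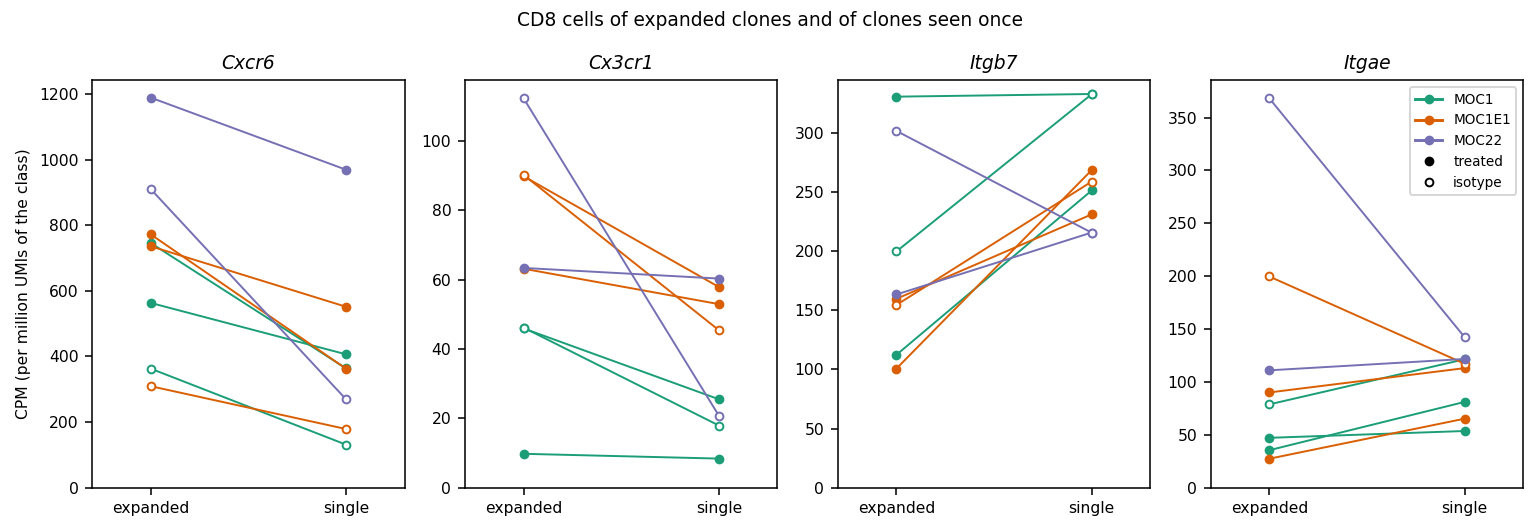
Levels of Cxcr6, Cx3cr1, Itgb7 and Itgae (y axis, CPM) in CD8 cells of expanded clones (left) and of clones seen once (right), with 1 line per library, coloured by model, filled for treated and open for isotype. Cxcr6 and Cx3cr1 lie higher in expanded cells in 8 of 8 libraries, Itgb7 in 1 of 8 and Itgae in 2 of 8.

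Bulk RNA showed which members the carcinoma cells themselves carried. The labels record the cultures as untreated, while all their column names carry the tag plusifng, so whether these are levels of untreated cells is not settled by the sources used here. In cultures Itgb1 was 302 ± 3.95 TPM in MOC1E1 and 216 ± 7.94 TPM in MOC1 (SD, n = 3 each), and Itgb7 was 21.1 ± 1.70 TPM in MOC1E1 and 61.3 ± 1.59 TPM in MOC1. The other 7 members were listed at 0.290 TPM or less in every culture and did not pass the filter on low values. By limma on log2(TPM + 1), with Benjamini-Hochberg adjustment, Itgb1 was higher (0.48, SE 0.04, adjusted p 8.43e-05) and Itgb7 lower (-1.50, SE 0.07, adjusted p 2.62e-06) in MOC1E1 cultures, 2 of 2 tested members, where 53.4% of 13975 genes were called.

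In untreated tumours Itgb7 was 5.84, 6.14 and 11.6 TPM in MOC1E1 and 16.2, 20.1 and 23.2 TPM in MOC1 (limma -1.28, SE 0.25, adjusted p 0.0140). Itgb1 was 189, 196 and 206 TPM in MOC1E1 and 131, 136 and 161 TPM in MOC1 (limma 0.47, SE 0.10, adjusted p 0.0157). Ccr2 was 2.71, 4.01 and 4.16 TPM in MOC1E1 and 8.34, 12.1 and 12.3 TPM in MOC1 (limma -1.36, SE 0.21, adjusted p 0.00518). These were 3 of 8 tested members, where 18.6% of 15125 genes were called. In bulk tumours fewer cells of a type and less RNA per cell cannot be told apart. Leaving out 1 MOC1 tumour put Itgb7 at a limma adjusted p of 0.0538, and leaving out any 1 of 3 tumours did the same to Itgb1, at 0.0535 to 0.0593. Cxcr6 was 3.00 ± 2.33 TPM in MOC1E1 and 2.94 ± 0.637 TPM in MOC1 tumours (limma adjusted p 0.858), and Itgae was 3.13 ± 1.10 TPM in MOC1E1 and 4.81 ± 0.485 TPM in MOC1 tumours (limma adjusted p 0.134).

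The ligands of Itgae and Cxcr6 were present in the carcinoma cells and moved in opposite directions. Cdh1, the E-cadherin gene, was 321 ± 7.90 TPM in MOC1E1 and 254 ± 8.99 TPM in MOC1 cultures (limma 0.34, adjusted p 0.000556), and 207 ± 4.52 TPM in MOC1E1 and 151 ± 10.3 TPM in MOC1 tumours (limma 0.46, adjusted p 0.00783). Cxcl16 was 80.5 ± 3.13 TPM in MOC1E1 and 172 ± 8.92 TPM in MOC1 cultures (limma -1.09, adjusted p 4.89e-06), and 72.0 ± 10.4 TPM in MOC1E1 and 107 ± 2.97 TPM in MOC1 tumours (limma -0.58, adjusted p 0.0125). Of 14 ligand genes, 13 were tested in tumours, where 18.6% of all genes were called. Of these 13 limma called 1 higher and 2 lower (list median -0.22, all genes -0.04), the third being the Ccr2 ligand Ccl12 (-0.91). In cultures 8 were tested, where 53.4% of all genes were called. Of these 8 limma called 3 higher and 4 lower (list median -0.13, all genes -0.06). Among them were the Ccr2 ligand Ccl2 (-1.92), at 0.0333 ± 0.0289 TPM in MOC1E1 and 2.91 ± 0.410 TPM in MOC1, and the Ccr9 ligand Ccl25 (0.53). Madcam1, the gut vessel ligand of the Itga4 and Itgb7 pair, was listed at no more than 0.0800 TPM in any bulk library.

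For each member the 3 genes most like it were ranked by Pearson's r of log2(CPM + 1) over the 24 sums of library and class, among 7266 genes, as a description. Itga1 ran with the killer receptor genes Klre1 (r 0.93) and Klrk1 (r 0.92) and with Adgrg1 (r 0.91). Itgb7 ran with Psen2 (r 0.93), Lrrc32 (r 0.92), which presents latent transforming growth factor beta on regulatory T cells, and Zfp36l1 (r 0.92). Cxcr6 ran with Ostf1 (r 0.92), Pstpip1 (r 0.90) and Gng2 (r 0.87), and Itgae with Cerk (r 0.89), Apol9b (r 0.81) and Wls (r 0.81). Ccr2 ran with Tm9sf2, Raph1 and Eif4ebp1 (each r 0.89), Cx3cr1 with Plek (r 0.90), Lgals3bp (r 0.88) and Fhl2 (r 0.87), Itgb1 with Arhgap26 (r 0.83), and Itga4 with Gm5617 (r 0.82). Ccr9 reached only r 0.63, with Arl4c. The 24 sums come from 8 libraries and 3 classes and share both, and after thinning only 3 of the 27 named neighbours stayed.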

How the data were processed

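Each single-cell matrix gives, as the authors deposited it, whole UMI counts for genes and barcodes. The bulk tables give TPM as deposited, and sequencing depth is unknown for them. Cell Ranger 3.0.2, Trimmomatic 0.36, kallisto 0.46.0 and DESeq2 are named in the submitters' processing notes, with builds mm10 and GRCh38 listed without a role. Per the labels, 10x 5′ libraries were paired with receptor libraries, whose tables the authors deposited with UMI counts per chain. The members and lists were chosen with earlier results of these data known.

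Kept cells had 300 or more genes and no more than 10% mitochondrial UMIs. They were classed by transcripts and summed per library and class (at least 20 cells). Genes outside the 13728 common to all matrices held 1.20 to 1.40% of UMIs and were left out. Sums were fitted with edgeR 4.0.16 quasi-likelihood (TMM), with the library (classes, clones) or the model (treatment) as a block. log2(TPM + 1) was fitted with limma 3.58.1 in genes that passed a filter on low values. Adjustment was Benjamini-Hochberg across every tested gene, and 0.05 was the threshold. Doublets were kept, and an alternative left likely ones out. DESeq2 1.42.0 was another alternative. In simulated data the CD8 treatment step recovered 91% of 2-fold and 100% of 4-fold changes over 11075 genes, and the class step 100% of both over 9507 genes. For 2-fold changes the share was 71% in the CD4 treatment step (9485 genes), 84% in the Foxp3-positive treatment step (8340), 100% in the clone step (8367), 68% in bulk tumours (15125) and 94% in bulk cultures (13975). The simulated single-cell sums had no differences between libraries or models beyond depth. Only genes with a mean of at least 20 CPM were changed in them, and in the treatment steps only in the anti-PD-1 libraries. These shares therefore do not cover lower genes or anti-CTLA-4.

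The descriptions of both MOC22 receptor samples name the table of the other treatment. The table whose name matches the title was used, and as a check 97.3% (anti-PD-1) and 96.1% (isotype) of its barcodes lay in the RNA library of that treatment. No label says whether a library pools mice, or that the bulk libraries of a group came from separate mice or cultures, so p-values measure only the spread between these samples. Culture column names contain plusifng, while the labels record these cultures as untreated. The exomes were not analysed here, and some genes of the lists are not reported here. Bulk columns were mapped to groups, not to replicate numbers. The genes named are the 9 members, those of the called genes of 5 lists that are reported here (homing, residency, exit, transforming growth factor beta, ligands), and the genes most similar to each member. Python 3.11.15 and R 4.3.3 were used.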

Additional observations from a re-analysis of the deposited data

Results flagged for a closer look

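Members outside the T cell classes were looked at in MOC1E1, whose libraries held other immune cells. NK cells, taken as Ncr1-positive cells without Cd3 transcripts, held a Cxcr6 UMI in 40.2% of 224 cells with anti-CTLA-4 (interval 33.7 to 46.9), against 2.83% of 459 cells with isotype (1.52 to 4.79), and in 1.06% of 565 cells with anti-PD-1. In cells thinned to 2000 UMIs the shares were 29.2% with anti-CTLA-4 and 2.42% with isotype, and the levels were 244 and 15.5 CPM. An Itga1 UMI was held by 17.0% of NK cells with anti-CTLA-4 (12.3 to 22.5), against 2.40% with isotype. Both rest on 1 library per treatment, and T cells in which no Cd3 molecule was caught were not separated from this group.

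Ccr2 was held by 16.3% of 43 B cells with anti-PD-1 (6.81 to 30.7), against 0% of 61 with isotype, and by 8.80% of 443 neutrophils with anti-PD-1 (6.34 to 11.8), against 3.77% of 531 with isotype. Macrophages of the same anti-PD-1 library held it in 50.1% of cells, and the part of stray RNA in these shares was not tested.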

How the results depend on the processing

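Counts of called members are given here against those of the report, by comparison. CD8 against CD4 cells had 5 called, and 3 with classes from at least 2 UMIs, 3 without the filter on low counts, 1 without the library block and 2 to 5 with 1 library left out. Without the library block, 5 were called for CD8 against Foxp3-positive cells and 4 for Foxp3-positive against CD4 cells. For anti-PD-1 in CD8 cells 1 was called, and 2 after thinning, 2 without likely doublets, 3 with DESeq2, 2 without the filter and 0 to 2 with 1 library left out. For anti-CTLA-4 in CD8 cells leaving out 1 library gave 0 to 3. For anti-CTLA-4 in CD4 cells DESeq2 gave 2, no filter 2 and leave-outs 0 to 2. In Foxp3-positive cells no filter gave 1 for anti-PD-1 and 2 for anti-CTLA-4. Expanded against single cells had 3 called, and 1 with clones of at least 5 cells (MOC1E1 isotype is left out there), 0 without the library block and 1 to 3 with 1 library left out. Bulk tumours had 1 to 3 with 1 tumour left out. The causes of these differences were not tested.

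Of 27 genes most like a member, 3 were shared after thinning, 9 with classes from 2 UMIs, 17 in cells with a receptor chain and 14 without likely doublets, a comparison chosen after seeing the data. In single models 1 ratio past 2-fold with all cells reversed, that of Cx3cr1 in MOC1E1 Foxp3-positive cells under anti-CTLA-4. It was 0.28 (log2) without likely doublets against -1.04 with all cells. Ratios under 2-fold with all cells were left out of this count, and some also turned without likely doublets. With all cells, Cx3cr1 in MOC1E1 CD4 cells was 21.1 CPM with anti-CTLA-4 and 39.1 CPM with isotype. Without likely doublets it was 19.97 and 10.8 CPM. Ccr2 there was 143 and 221 CPM with all cells, and 143 and 102 CPM without likely doublets.

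Counts over all genes moved by more than 1.5 times as follows. Thinning gave 1110, 1905 and 1057 for CD8 against CD4, CD8 against Foxp3-positive and Foxp3-positive against CD4 cells, and no library block 577, 1564 and 796, against 2285, 3254 and 2230. For anti-PD-1 and anti-CTLA-4 in CD8 cells DESeq2 gave 571 and 804, no filter 448 and 742, and leave-outs as few as 0 and 29, both without MOC1E1 isotype, against 257 and 489. For anti-CTLA-4 in CD4 cells DESeq2 gave 134, no filter 340, classes from 2 UMIs 26 and leave-outs 1 to 212, against 53. For anti-PD-1 in CD4 cells DESeq2 gave 7, no filter 4 and leave-outs up to 1, against 0. For anti-PD-1 and anti-CTLA-4 in Foxp3-positive cells DESeq2 gave 4 and 19, no filter 84 and 180, and leave-outs up to 13 and 37, against 0 and 4. There the strict cell filter gave 1 and 1, thinning gave 3 for anti-PD-1, and cells with a receptor chain or without likely doublets gave 0 for anti-CTLA-4. Expanded clones had 300 after thinning, 368 with clones of at least 5, 19 without the block and as few as 159 with MOC1 anti-PD-1 left out, against 654. Bulk tumours had as few as 1273 with a tumour left out, against 2820.

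Treatments have 1 library per model, so each call rests on few pairs, and low UMI counts limit Ccr9, Itga1 and Cx3cr1. By replicate number, no paired analysis was possible because the bulk columns carry none of the labels' numbers and each single-cell condition has 1 library. The single-cell fits instead pair sums through their library or model block.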
